A study of Mus musculus with 20 samples.

Results

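Genes of DNA replication and S-phase entry were followed in fetal mouse liver at E17.5. The set holds 41 genes, chosen by name for what their proteins do, out of 45802 genes in the expression table. All 41 had a value in every library, and all 41 passed the minimum for testing, a log2 value of at least 0 in at least 4 libraries, which 11807 genes passed in all.

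Replication of a chromosome begins at origins. The origin recognition complex (Orc1, Orc2 and Orc6 in this set) binds there, and Cdc6 and Cdt1 load the ring-shaped helicase made of Mcm2 to Mcm7, a step called licensing. At S-phase entry, cyclin E (Ccne1, Ccne2) with its kinase, and the kinase Cdc7 with its partner Dbf4, switch the helicase on together with Mcm10, Cdc45 and the GINS proteins. Polymerases then copy the strands behind primase, on the sliding clamp Pcna, with ribonucleotide reductase (Rrm1, Rrm2) and thymidylate synthase (Tyms) supplying the building blocks. E2f1 is a transcription factor that turns on many of these genes. The fetal liver is a blood-forming organ late in gestation, with many dividing red cell precursors beside its hepatocytes.

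The 20 libraries came from C57BL/6 fetuses of dams fasted for 24 h, in 5 groups of 4 fetuses, each with 2 females and 2 males. In the Ppar-alpha (Ppara) arm, HetDam_HetFetus were heterozygous fetuses of heterozygous dams, KODam_HetFetus were heterozygous fetuses of knockout dams, and KODam_KOFetus were knockout fetuses of knockout dams, so no fetus or dam of this arm was labelled wild-type. In the Cpt2 arm, FloxDam_FloxFetus were Cpt2f/f fetuses of Cpt2f/f dams and Cpt2LKODam_FloxFetus were Cpt2f/f fetuses of Cpt2f/f; Albumin-Cre dams, in which the Albumin promoter drives Cre in liver cells. The titles and the design text call Cpt2-arm fetuses and control dams wild-type where the genotype labels say Cpt2f/f. PPARA is the nuclear receptor that turns on fat burning in the fasted liver, and CPT2 is a mitochondrial enzyme of that pathway. Numbers in the sample descriptions, which no label explains, put the 20 fetuses in 17 presumed litters, with replicates 1 and 2 of KODam_HetFetus, replicates 1 and 2 of KODam_KOFetus and replicates 3 and 4 of FloxDam_FloxFetus as presumed littermates. No label says whether the other fetuses were from separate dams, so p-values cover the spread between these fetuses, which need not be that between litters. Unless stated, the fit treated presumed littermates as independent.

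Ppara itself had log2 values of 2.86 to 3.47 in HetDam_HetFetus, of 1.81 to 3.22 in KODam_HetFetus and 1.87 to 2.48 in KODam_KOFetus, so its level did not separate heterozygous from knockout fetuses of knockout dams. Fetal Cpt2 had values of 3.61 to 4.26 in FloxDam_FloxFetus and 3.83 to 3.95 in Cpt2LKODam_FloxFetus. Summed linear levels of 10 hepatocyte markers were 74700 to 140000 over the groups, and all 10 had a value in the libraries of KODam_HetFetus. Markers of neighbouring tissue stood out in 4 libraries: HetDam_HetFetus replicate 1 (gut epithelium markers at 104 against 3.7 to 28.5 in the others), HetDam_HetFetus replicate 4 and KODam_KOFetus replicate 2 (skeletal muscle markers at 145 and 198 against 8.9 to 20.3) and Cpt2LKODam_FloxFetus replicate 2 (exocrine pancreas markers at 272 against 0.0787 to 8.5).

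Replication genes are known as targets of the E2F family, so promoters were searched for E2F letters, and the 4 with most matches, with ties taken by p in the first comparison below, are shown. The motif was searched as TTTGGCGC, TTTCCCGC, TTTGCCGC and TTTCGCGC on both strands of the 250 bases before the transcription start, from RefSeq promoters on GRCm38.p6. Of the set, 33 genes matched 39 promoters, and 8 of these 39 (20.5%) held a match, against 611 of 32851 promoters of all genes (1.86%). Mcm4, Gins1, Gins2, Gins4, Pole, Prim2, Rfc2 and Ccne2 had no entry. Sequences run 5′ to 3′ towards the start, with matches in capitals, and overlapping matches run together. Mcm6 (chr1:128359706-128359955, minus strand) held 3 matches, which begin 110, 106 and 47 bases before the start. Mcm5 (chr8:75109259-75109508, plus strand) held 2, which overlap. Mcm7 (chr5:138171884-138172133, minus strand) and Rfc3 (chr5:151651209-151651458, minus strand) held 1 each. Mcm7 had 2 promoters, and the one with most matches is shown. Its window lies mostly inside the annotated gene (chr5:138164583-138172111), so it precedes a start within that gene.
Mcm6: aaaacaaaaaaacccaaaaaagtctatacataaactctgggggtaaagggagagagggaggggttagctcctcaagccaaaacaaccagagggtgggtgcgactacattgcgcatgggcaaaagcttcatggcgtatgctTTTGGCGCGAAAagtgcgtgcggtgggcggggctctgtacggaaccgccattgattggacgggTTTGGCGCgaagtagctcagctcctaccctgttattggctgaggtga
Mcm5: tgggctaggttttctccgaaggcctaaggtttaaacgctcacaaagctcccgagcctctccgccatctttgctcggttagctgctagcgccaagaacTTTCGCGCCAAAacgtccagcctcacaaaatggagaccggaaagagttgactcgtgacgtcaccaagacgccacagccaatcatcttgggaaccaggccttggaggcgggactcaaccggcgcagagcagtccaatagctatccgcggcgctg
Mcm7: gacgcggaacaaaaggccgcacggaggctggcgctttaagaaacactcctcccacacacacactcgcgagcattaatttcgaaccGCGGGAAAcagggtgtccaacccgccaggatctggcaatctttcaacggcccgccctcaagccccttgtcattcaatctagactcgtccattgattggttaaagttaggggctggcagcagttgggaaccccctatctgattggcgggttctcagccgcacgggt
Rfc3: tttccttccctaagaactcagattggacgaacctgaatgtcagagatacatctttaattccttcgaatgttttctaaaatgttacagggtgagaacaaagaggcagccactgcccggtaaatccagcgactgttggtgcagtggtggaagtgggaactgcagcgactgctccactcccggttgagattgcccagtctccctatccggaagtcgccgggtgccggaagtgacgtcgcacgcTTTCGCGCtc
The letters CCAAT, searched on both strands of the same window, were in 22 of the 39 promoters (56.4%) and in 33.8% of all. These letters can share only an end base with the E2F letters. A match is a description of letters and not a measured site.

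The first question was whether the genotype of the dam changed these genes in heterozygous fetuses. With a knockout dam, 31 of the 41 genes (75.6%) rose and 0 fell at a limma adjusted p under 0.05, against 26.4% of all tested genes called higher and 12.6% called lower. At an unadjusted p under 0.05 there were 31 genes of the set, against 48.1% of all tested genes in both directions. The median log2 difference of the set was 0.695, against 0.144 over all tested genes, and 40 of the 41 differences were above 0. The 4 fetuses of knockout dams lay wholly above the 4 control fetuses for 26 genes (63.4%), against 24.5% of all genes with a value in each of these libraries, and wholly below for 0, against 11.8%. In whole tissue, more dividing cells and more RNA per cell cannot be told apart. Nearly all genes of the set were higher in 2 particular fetuses of KODam_HetFetus, as described below, and without that pair 10 of 41 (24.4%) were called, against 19.7% of all tested genes.

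**Figure D1:**
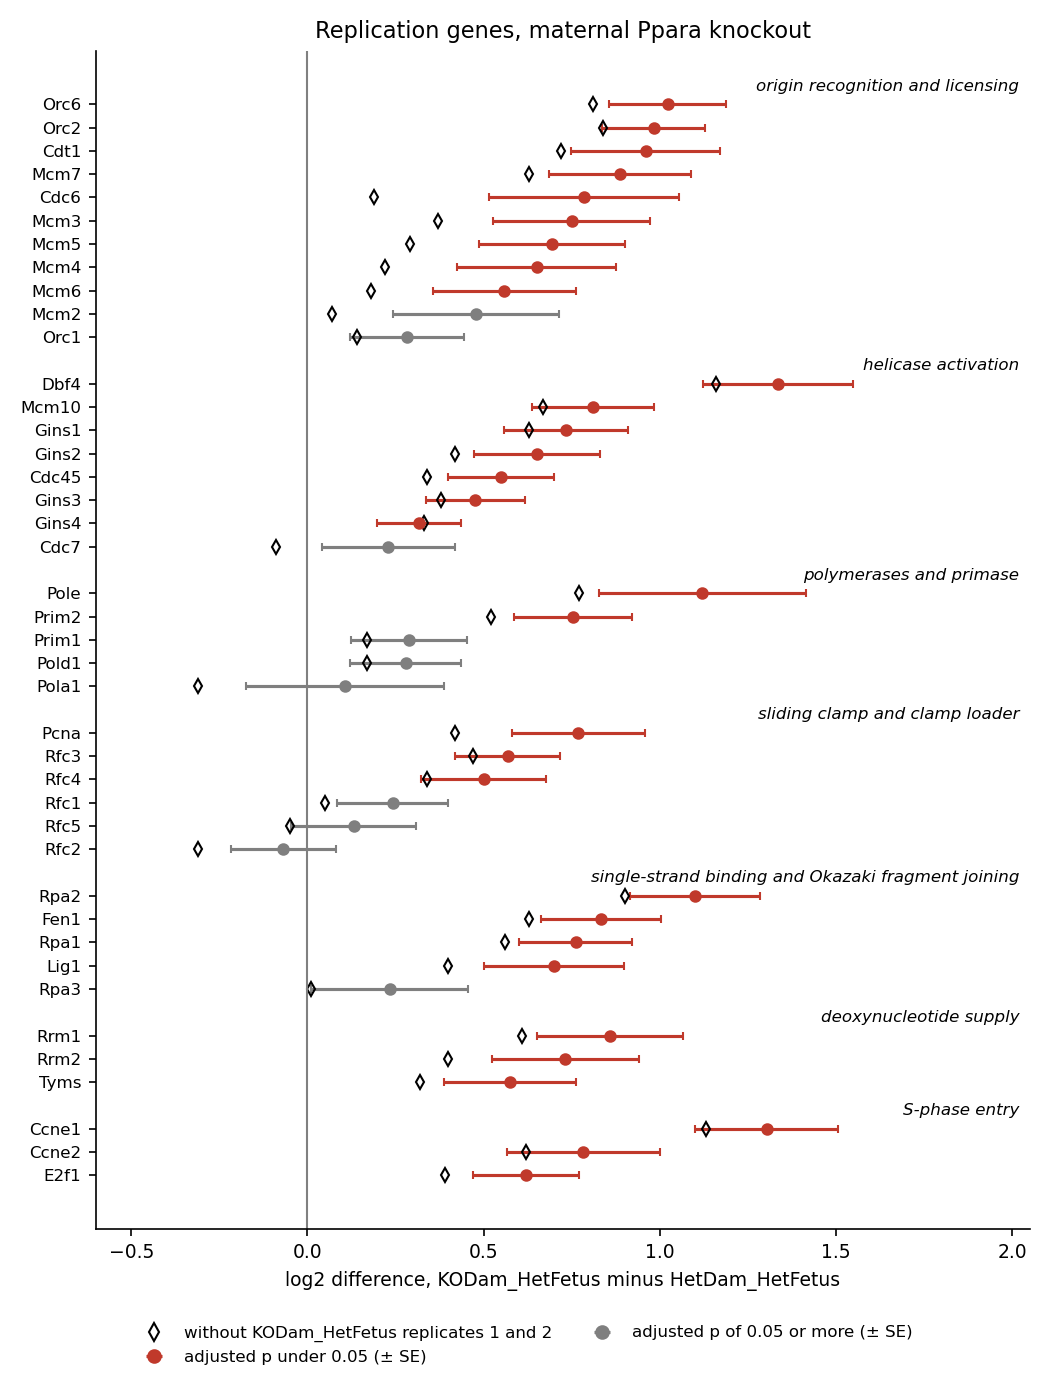
Log2 difference between KODam_HetFetus and HetDam_HetFetus (x axis) for each of the 41 genes (y axis, by role), with circles and bars for the estimate and its standard error (n = 4 per group) and open diamonds for the estimate without KODam_HetFetus replicates 1 and 2. Red circles mark the 31 genes at an adjusted p under 0.05, and most diamonds lie to the left of their circles.

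Of the 11 genes of origin recognition and licensing, 9 rose and 0 fell, with a median of 0.75. Counts by role, here and below, stand beside 26.4% of all tested genes called higher and 12.6% called lower. Orc2, a subunit of the origin recognition complex, had log2 values of 2.10, 2.09, 2.17 and 2.12 in HetDam_HetFetus and 3.31, 3.18, 2.94 and 2.99 in KODam_HetFetus. All fetuses of knockout dams were above all controls, and the difference was 0.98 ± 0.15 (SE), or 1.98-fold (limma adjusted p = 1.87e-04). Orc6, the smallest subunit of that complex, had values of 4.25, 4.23, 4.02 and 4.07 in controls and 5.42, 5.33, 4.99 and 4.92 with a knockout dam. Here too the groups did not overlap, with a difference of 1.02 ± 0.17 (adjusted p = 3.01e-04, limma). Orc1, the subunit that binds Cdc6, had a difference of 0.28 ± 0.16 that did not pass (limma adjusted p = 0.173), with overlapping values of 1.15, 1.09, 1.41 and 0.85 and of 1.5, 1.6, 1.13 and 1.4.

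Among the loading factors, Cdt1, which brings the helicase ring to the origin, was 0.96 ± 0.21 higher (limma adjusted p = 0.00201), with 4.14 to 4.54 in controls and 5.05 to 5.62 with a knockout dam. Cdc6, the ATPase that works with Cdt1, had values of 2.80, 2.52, 2.66 and 2.52 in controls and 3.69, 4.32, 2.66 and 2.96 with a knockout dam. Replicates 1 and 2 set its difference of 0.79 ± 0.27 (limma adjusted p = 0.0278), while replicate 3 equalled a control. The helicase subunits Mcm3, Mcm4, Mcm5, Mcm6 and Mcm7 rose by 0.75, 0.65, 0.69, 0.56 and 0.89, and Mcm2 had a difference of 0.48 ± 0.24 that did not pass (limma adjusted p = 0.114). Mcm2 read 4.92, 4.35, 4.68 and 4.77 in controls and 5.27, 5.86, 4.57 and 4.93 with a knockout dam. Replicates 1 and 2 were well above the control range, replicate 4 lay at its upper edge and replicate 3 lay within it.

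Of the 8 genes of helicase activation, 7 rose and 0 fell, with a median of 0.601. Dbf4, the regulatory partner of the Cdc7 kinase, had values of 3.77, 3.32, 3.14 and 3.82 in controls and 5.07, 4.98, 4.62 and 4.73 with a knockout dam. The groups were far apart, and its difference of 1.33 ± 0.21, or 2.52-fold, was the largest of the 41 genes (limma adjusted p = 2.72e-04). Cdc7, the kinase itself, had a difference of 0.23 ± 0.19 (limma adjusted p = 0.347), with values of 1.77, 1.51, 1.65 and 1.82 in controls and 2.10, 2.37, 1.48 and 1.73 with a knockout dam, which overlap. Mcm10, which helps start the helicase, had values of 1.75, 1.35, 1.42 and 1.30 in controls and 2.39, 2.40, 1.98 and 2.27 with a knockout dam. Every fetus of a knockout dam exceeded every control, with a difference of 0.81 ± 0.17 (limma adjusted p = 0.00171). The helicase partner Cdc45 rose by 0.55, and the 4 GINS subunits Gins1, Gins2, Gins3 and Gins4 rose by 0.73, 0.65, 0.48 and 0.32.

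Among the polymerases and primase, 2 of 5 genes rose and 0 fell, with a median of 0.289. With so few genes, that count is not far from the 26.4% of all tested genes called higher. Pole, the catalytic subunit of the leading-strand polymerase, had values of 1.52, 0.79, 1.52 and 1.46 in controls and 2.81, 2.78, 1.88 and 2.30 with a knockout dam. The groups did not overlap, and the difference was 1.12 ± 0.29 (limma adjusted p = 0.00621). Prim2, the large primase subunit, had values of 2.33, 2.09, 2.29 and 2.25 in controls and 3.20, 3.26, 2.68 and 2.84 with a knockout dam, a difference of 0.75 ± 0.17 without overlap (limma adjusted p = 0.00212). Prim1, the catalytic primase subunit, did not pass at 0.29 ± 0.16 (limma adjusted p = 0.172), though its groups did not overlap, at 3.91 to 4.11 and 4.12 to 4.48. Pold1, of the lagging-strand polymerase, had a difference of 0.28 ± 0.16 and Pola1, of the polymerase that extends primers, one of 0.11 ± 0.28, and neither passed (limma adjusted p = 0.166 and 0.787).

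Of the 6 genes of the sliding clamp and its loader, 3 rose and 0 fell, with a median of 0.371. Pcna, the ring that holds polymerases on DNA, had values of 7.02, 6.67, 6.93 and 6.87 in controls and 7.93, 8.05, 7.27 and 7.32 with a knockout dam. The lowest of the latter was above the highest control, and the difference was 0.77 ± 0.19 (limma adjusted p = 0.00421). Rfc3, a loader subunit, had values of 3.50, 3.25, 3.12 and 3.24 in controls and 4.02, 3.87, 3.77 and 3.73 with a knockout dam, a difference of 0.57 ± 0.15 without overlap (limma adjusted p = 0.00637). Rfc4 was the other loader subunit that rose, by 0.50 ± 0.18. Rfc1, Rfc5 and Rfc2 did not pass, at 0.24 ± 0.16, 0.13 ± 0.18 and -0.07 ± 0.15, and Rfc2 alone of the 41 had a difference below 0. Rfc2 read 4.31, 4.10, 4.00 and 4.23 in controls and 4.12, 4.53, 3.84 and 3.86 with a knockout dam, and the 95% interval of its difference ran from -0.38 to 0.24.

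In single-strand binding and Okazaki fragment joining, 4 of 5 genes rose and 0 fell, with a median of 0.762. Rpa2, a subunit of the protein that coats single-stranded DNA, had values of 4.42, 4.19, 4.15 and 3.95 in controls and 5.45, 5.51, 5.02 and 5.13 with a knockout dam. The gap between the groups was wide, with a difference of 1.10 ± 0.18, or 2.14-fold (limma adjusted p = 3.52e-04). Its partner Rpa1 rose by 0.76 ± 0.16, and the small subunit Rpa3 had a difference of 0.23 ± 0.22 that did not pass (limma adjusted p = 0.424), with values of 3.82, 4.05, 3.29 and 3.78 and of 4.09, 4.28, 3.81 and 3.68. Fen1, the nuclease that trims flaps between fragments, had values of 4.52, 4.23, 4.21 and 4.23 in controls and 5.38, 5.29, 4.87 and 4.99 with a knockout dam. Those groups did not overlap either, with a difference of 0.83 ± 0.17 (limma adjusted p = 0.00131). Lig1, the ligase that seals fragments, rose by 0.70 ± 0.20.

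Deoxynucleotide supply and S-phase entry each had 3 of 3 genes that rose, with medians of 0.732 and 0.782. Rrm1, the large subunit of ribonucleotide reductase, had values of 5.31, 4.67, 5.02 and 5.23 in controls and 6.08, 6.25, 5.53 and 5.82 with a knockout dam, a difference of 0.86 ± 0.21 (limma adjusted p = 0.00370). Rrm2, its small subunit, had values of 6.70, 6.29, 6.39 and 6.58 in controls and 7.52, 7.59, 6.83 and 6.94 with a knockout dam, a difference of 0.73 ± 0.21 (limma adjusted p = 0.0105). Neither gene's groups overlapped, and Tyms, which makes thymidylate, rose by 0.57 ± 0.19 in the same way. Ccne1, the cyclin that opens S phase, had values of 3.78, 3.43, 3.28 and 3.33 in controls and 5.00, 4.87, 4.57 and 4.59 with a knockout dam. Its difference was 1.30 ± 0.20, or 2.47-fold (limma adjusted p = 2.35e-04), and the second cyclin E gene, Ccne2, rose by 0.78 ± 0.22. E2f1 had values of 3.41, 3.21, 3.16 and 3.10 in controls and 4.04, 4.10, 3.61 and 3.61 with a knockout dam, a difference of 0.62 ± 0.15 without overlap (limma adjusted p = 0.00402).

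**Figure D2:**
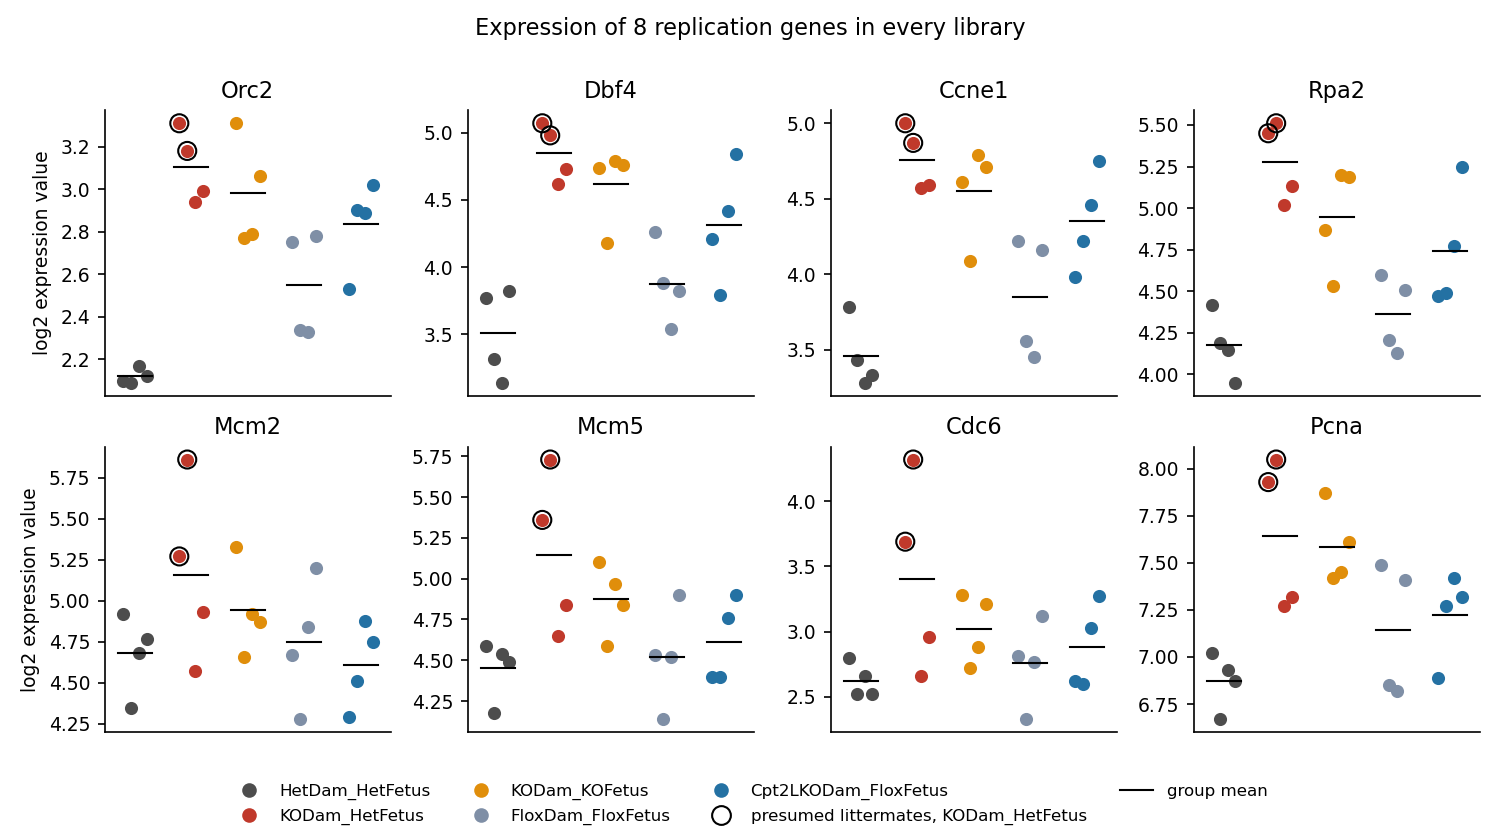
Log2 expression values (y axis) of 8 genes in each of the 20 libraries, grouped and coloured by group (x axis), with a line at each group mean and rings around KODam_HetFetus replicates 1 and 2. For Orc2, Dbf4, Ccne1 and Rpa2 all 4 fetuses of KODam_HetFetus lie above HetDam_HetFetus. The ringed pair stands above the rest of KODam_HetFetus for all 8 genes, with wide gaps for Cdc6 (1.2) and Mcm2 (0.81) and a narrower one for Orc2 (0.29).

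The 8 genes with an E2F match held 6 of the higher calls, with a median difference of 0.56, and the 25 genes with a promoter but no match held 18, with a median of 0.73. Ccne1, Dbf4 and Rpa2 had no match in the window, and Mcm6, with 3, rose by 0.56.

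Within KODam_HetFetus the set divided the 4 fetuses. Both presumed littermates, replicate 1 (a female) and replicate 2 (a male), were above both other fetuses for 40 of the 41 genes, with Gins4 the exception, against 15.4% of all tested genes. The median gap between the pairs was 0.44 for the set and -0.167 for all tested genes. It was widest for Cdc6 (1.2), Mcm4 (0.87), Pola1 (0.83), Mcm2 (0.81) and Mcm5 (0.80), and narrow for Rfc3 (0.19), Gins3 (0.20), Gins1 (0.21) and Pold1 (0.21). The other presumed pairs showed no such order: in KODam_KOFetus the pair was above both others for 1 gene and below both for 7, and in FloxDam_FloxFetus for 7 and 4. Of all tested genes, those pairs were above both others for 25.2% and 39.6%.

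Without that pair the calls fell from 31 to 10, with a median of 0.387 against 0.224 over all tested genes. The 10 genes were Orc2, Orc6, Cdt1, Dbf4, Mcm10, Gins1, Rpa1, Rpa2, Fen1 and Ccne1, and the same 10 were called under each of the 22 settings tried for this comparison. Their differences without the pair ran from 0.56 (Rpa1) to 1.16 (Dbf4), with Ccne1 at 1.13 and Orc2 at 0.84. The helicase subunits Mcm2, Mcm3, Mcm4, Mcm5 and Mcm6 came to 0.07, 0.37, 0.22, 0.29 and 0.18, and Cdc6 to 0.19, and none of these passed. Mcm7 came to 0.63 (limma adjusted p = 0.0610). By role, 3 of 11 licensing genes, 3 of 8 helicase activation genes, 3 of 5 single-strand binding and joining genes and 1 of 3 entry genes were called without the pair, beside the 19.7% of all tested genes, which the licensing share is near. For polymerases and primase, the clamp and its loader, and nucleotide supply the count was 0, and the medians of 0.289, 0.371 and 0.732 became 0.17, 0.195 and 0.40.

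Some marker levels also differed between HetDam_HetFetus and KODam_HetFetus. The summed level of 10 erythroid markers was 1360 to 1890 in HetDam_HetFetus and 2110 to 2750 in KODam_HetFetus, where it was 2674 and 2754 in the presumed littermates and 2113 and 2197 in the others. Of these markers 2 of 10 rose, the erythropoietin receptor Epor by 0.92 and the band 3 anion exchanger Slc4a1 by 0.93, while Klf1 and Gata1, transcription factors of red cell precursors, did not pass. That count is below the 26.4% of all tested genes called higher. Over the 10 markers the median difference was 0.244, with 7 above 0 and the lowest at -0.28. Neutrophil markers went the other way, at 5410 to 8220 and 3170 to 5310, with 7 of 10 lower, and in KODam_HetFetus they were lowest in the littermates (3171 and 3424 against 4570 and 5314). Summed blood stem and progenitor markers were 25.5 to 28.1 and 20.9 to 24.4, with 2 of 5 lower, and those of mast cells and basophils were 1.45 to 2.14 and 2.46 to 3.82, with 1 of 3 higher. Of 7 macrophage markers 1 was higher and 3 were lower, and of 4 cholangiocyte markers 2 were lower. These lower counts stand beside 12.6% of all tested genes called lower. The mast cell and basophil count is near the 26.4% called higher. Genes with any value numbered 23334 to 24807 in HetDam_HetFetus and 24169 to 26255 in KODam_HetFetus. The part of these markers and of the number of detected genes in the result was not tested. The set was also tested without the 4 libraries with markers of neighbouring tissue, a check chosen after seeing the data. Then 25 of the 41 genes were higher, in place of 31, with a median of 0.783. Over all tested genes 2353 were higher, in place of 3117 of 11800, with a median of 0.192. The differences were 1.62 for Dbf4, 1.41 for Ccne1 and 0.97 for Orc2.

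**Figure D3:**
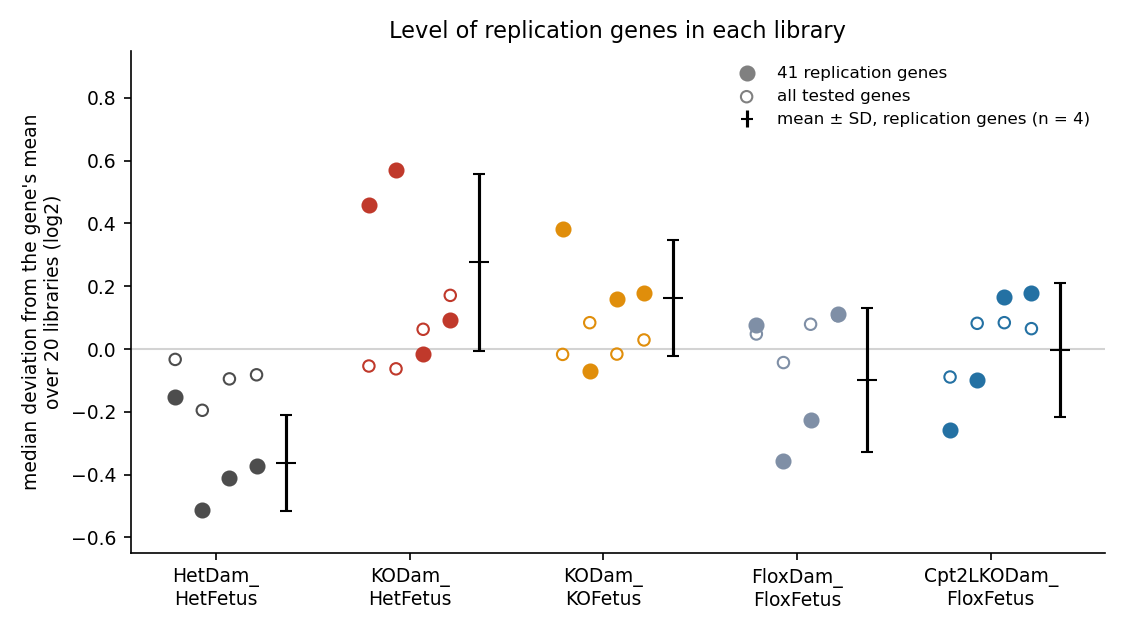
Median deviation of the 41 genes from their means over the 20 libraries (y axis, log2; filled circles) in each library, by group (x axis), with open circles for all tested genes and bars for the group mean and SD (n = 4). HetDam_HetFetus ran from -0.513 to -0.153 and KODam_HetFetus from -0.017 to 0.57, with 2 of its libraries at 0.458 and 0.57.

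The level of the set by group was the median, over the 41 genes, of each library's deviation from the gene's mean. It averaged -0.363 ± 0.152 (SD, n = 4) in HetDam_HetFetus. Fetuses of Ppara knockout dams averaged 0.276 ± 0.282 where heterozygous and 0.163 ± 0.185 where knockout. In the Cpt2 arm FloxDam_FloxFetus averaged -0.0985 ± 0.229 and Cpt2LKODam_FloxFetus -0.00325 ± 0.212. HetDam_HetFetus had the lowest group mean for 35 of the 41 genes and KODam_HetFetus the highest for 29. The control group of the Ppara arm therefore held the low end for most of the set. Over all tested genes the same kind of level averaged -0.101 in HetDam_HetFetus and 0.02 to 0.0475 in the other groups. That group was thus also low beyond the set. The order of group means was not counted over all tested genes.

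Knockout fetuses of knockout dams were compared with the same controls, so this comparison shares its HetDam_HetFetus libraries with the last. Of the 41 genes, 24 (58.5%) rose and 0 fell, against 17.4% and 7.31% of all tested genes, with a median of 0.502 against 0.137. At an unadjusted limma p under 0.05 there were 27 genes of the set, all higher, against 38.9% of all tested genes in both directions. The groups did not overlap for 20 genes of the set, all higher, against 19.1% of all genes higher and 7.29% lower. The largest rises were in Dbf4 (1.10 ± 0.21), Ccne1 (1.09 ± 0.20), Gins1 (0.93 ± 0.18) and Orc2 (0.86 ± 0.15), with limma adjusted p-values of 0.00186, 0.00144, 0.00160 and 8.10e-04. Orc2 read 3.31, 2.77, 2.79 and 3.06 in KODam_KOFetus, all above the 2.09 to 2.17 of the controls. Ccne1 read 4.61, 4.09, 4.79 and 4.71, also above every control. Dbf4 read 4.74, 4.18, 4.79 and 4.76 against 3.14 to 3.82, and Gins1, a subunit that joins Cdc45 to the helicase, read 3.52, 3.29, 3.35 and 3.43 against 2.23 to 2.76. For all of these genes the lowest knockout fetus exceeded the highest control. Cdc6, Mcm2, Mcm3, Mcm4, Mcm5 and Mcm6 did not pass here, at 0.40, 0.27, 0.45, 0.40, 0.43 and 0.31, and their groups overlapped. Mcm10 and Pole, at 0.42 and 0.57, did not pass either.

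By role, 4 of 11 licensing genes rose, 6 of 8 for helicase activation, 1 of 5 polymerase and primase genes (Prim2, 0.70), 3 of 6 clamp and loader genes, 4 of 5 for single-strand binding and joining, and 3 of 3 in each of the other roles. These counts stand beside 17.4% of all tested genes called higher, which the polymerase and primase share is near. The count over the whole set depended on scaling and on single libraries. It was 12 after trimmed-mean scaling (29.3%, against 10.4% of all tested genes), 12 without KODam_KOFetus replicate 1, 13 without HetDam_HetFetus replicate 3, and 14 without HetDam_HetFetus replicate 2 or KODam_KOFetus replicate 4. The share of all tested genes is not given here for the settings without single libraries. A change particular to the set therefore cannot be read from those counts. Erythroid markers summed to 2220 to 3020 in KODam_KOFetus, above the controls, with 4 of 10 higher, and 4 of 10 neutrophil markers were lower. In the same comparison 17.4% of all tested genes were called higher and 7.31% lower.

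The fetal genotype itself was compared between knockout and heterozygous fetuses, both of knockout dams. None of the 41 genes passed (0 higher and 0 lower by limma, with 1 at an unadjusted p under 0.05), against 0.0254% of all tested genes called higher and 0.796% lower, and 10.9% at an unadjusted p under 0.05. For every gene of the set the groups overlapped, while 1.67% of all genes were wholly higher and 4% wholly lower. The median difference was -0.115, against -0.015 over all tested genes. The gene at an unadjusted p under 0.05 was Mcm10, at -0.39 ± 0.17 (limma adjusted p = 0.444), with 1.57 to 2.04 in knockout and 1.98 to 2.40 in heterozygous fetuses. Cdc6, Mcm7 and Pole had differences of -0.39, -0.31 and -0.55, with 95% intervals of -0.95 to 0.18, -0.73 to 0.11 and -1.17 to 0.06. Without the presumed littermates of KODam_HetFetus the median changed sign, to 0.124.

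**Figure D4:**
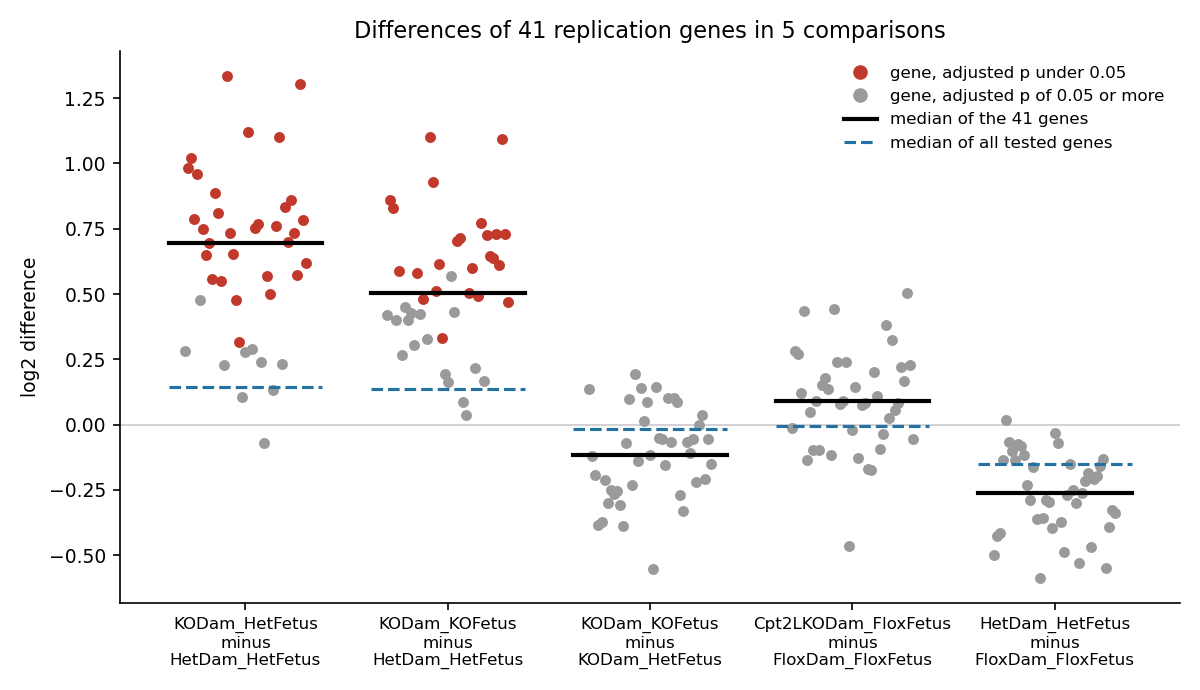
Log2 differences (y axis) of the 41 genes, one dot each, in 5 comparisons (x axis), with a solid line at the median of the set and a dashed line at the median of all tested genes. Genes at an adjusted p under 0.05, in red, are 31 and 24 in the comparisons of knockout dams with HetDam_HetFetus and 0 in the others.

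Loss of Cpt2 from the dam's liver tested a block in fat burning of another kind. None of the 41 genes passed (0 higher and 0 lower by limma, with 1 at an unadjusted p under 0.05), and 0% of all tested genes passed in either direction, with 11.1% at an unadjusted p under 0.05. Groups overlapped for every gene of the set, while 3.16% of all genes were wholly higher and 2.87% wholly lower. The median difference was 0.09, against -0.007 over all tested genes, and 28 of 41 were above 0. The exception at an unadjusted p under 0.05 was Ccne1, which read 4.22, 3.56, 3.45 and 4.16 in FloxDam_FloxFetus and 3.98, 4.22, 4.46 and 4.75 in Cpt2LKODam_FloxFetus. Those groups overlapped, with a difference of 0.50 ± 0.20 (limma adjusted p = 0.390). Dbf4, Cdt1 and Rpa2 had differences of 0.44 ± 0.21, 0.43 ± 0.21 and 0.38 ± 0.18, and Orc2 one of 0.28 ± 0.15. Mcm2, Mcm4, Mcm6 and Pola1 lay below 0, at -0.14, -0.10, -0.10 and -0.47, while Mcm3, Mcm5 and Mcm7 were at 0.05, 0.09 and 0.15.

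The difference between the effects of the dam's Ppara and Cpt2 genotypes was tested directly. It was above 0 for all 41 genes, with a median of 0.573 against 0.149 over all tested genes, but 0 genes of the set and 0% of all tested genes passed in limma. At an unadjusted p under 0.05 there were 19 of the 41, and 19.9% of all tested genes in both directions together. The smallest p-values in the set were those of Rpa1 (0.80 ± 0.23), Orc2 (0.70 ± 0.21), Orc6 (0.75 ± 0.24) and E2f1 (0.68 ± 0.21), each with a limma adjusted p of 0.129 to 0.139. Without Cpt2LKODam_FloxFetus replicate 4, 3 of the 41 genes passed, Dbf4, Rpa1 and Rpa2. Over all tested genes, which numbered 11798 with every library, 343 were then called higher and 78 lower. Without the presumed littermates of KODam_HetFetus the median was 0.299, against 0.228 over all tested genes.

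The control groups of the arms differed in the same direction for most of the set, though no gene passed. HetDam_HetFetus was below FloxDam_FloxFetus for 40 of 41 genes, with a median of -0.263 against -0.15 over all tested genes, and limma called 0 higher and 0 lower, with 11 at an unadjusted p under 0.05. Of all tested genes 0.0593% and 0.0763% were called higher and lower, and 16.5% had an unadjusted p under 0.05. Orc1, Orc2 and Tyms were wholly lower, as were 9.67% of all genes, and 0.394% of all genes were wholly higher. The largest differences among the 11 were in Gins1 (-0.59 ± 0.18), Tyms (-0.55 ± 0.19) and Rfc4 (-0.53 ± 0.18), with limma adjusted p-values of 0.160, 0.188 and 0.177. Trimmed-mean scaling brought the medians to -0.113 and 0. The groups differ in genotype of dam and fetus and in mating, which cannot be told apart.

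Male and female fetuses were compared over all groups. No gene of the set passed (limma called 0, with 4 at an unadjusted p under 0.05), and 0.0254% of all tested genes were called in each direction, and 5.19% had an unadjusted p under 0.05. The median male minus female difference was -0.126, against -0.046 over all tested genes. Ccne1 at -0.32 ± 0.11, Rpa2 at -0.27 ± 0.10, Mcm10 at -0.25 ± 0.10 and Rfc3 at -0.22 ± 0.08 were the 4, each with a limma adjusted p of 0.855.

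Other genes of the pathway came from lists of replication, nucleotide, cell cycle and mitosis genes that do not overlap the set. With a knockout dam and a heterozygous fetus, 19 of 28 further replication proteins rose and 0 fell, with a median of 0.627. The counts of these lists stand beside 26.4% of all tested genes called higher and 12.6% called lower. They included the polymerase epsilon subunit Pole3 (0.93 ± 0.16), the Cdt1 inhibitor geminin, Gmnn (0.85 ± 0.15), the polymerase delta subunit Pold2 (0.69 ± 0.13) and the alternative clamp loader subunit Chtf18 (1.24 ± 0.24). Of 10 further nucleotide genes 4 rose, with a median of 0.281, and the count is not far from that 26.4%. Among the 4 were the CTP synthase Ctps (0.97 ± 0.16) and thymidine kinase Tk1 (0.81 ± 0.15), and the uridine monophosphate synthase Umps fell by 0.44. Of 17 mitosis genes 12 rose and 0 fell, including the mitotic kinase Cdk1 (0.93 ± 0.14), the chromosomal kinase Aurkb (1.01 ± 0.18), Ccnb1 (0.98 ± 0.18) and Cenpa (0.75 ± 0.14). The proliferation marker Mki67 did not pass, at 0.58 ± 0.28 (limma adjusted p = 0.111).

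Genes that promote and genes that restrain S-phase entry were both among those that rose. Of 13 promoting genes 5 rose and 0 fell, with a median of 0.288 and a lowest difference of -0.41. With so few genes, that count is not far from the 26.4% of all tested genes called higher. The 5 included the activating factor E2f2 (1.21 ± 0.23), Ccna2 (0.90 ± 0.18), the D-type cyclin Ccnd3 (0.83 ± 0.15) and Cdk2 (0.49 ± 0.14). Cdk4 and Ccnd1 did not pass, at 0.02 and -0.06. Of 15 restraining genes 11 rose and 1 fell, with a median of 0.667. The repressing factors E2f7 and E2f8 rose by 1.79 ± 0.34 and 1.25 ± 0.30, the pocket protein Rbl1 by 0.95 ± 0.21 and the kinase inhibitor Cdkn2d by 0.56 ± 0.13. Cdkn1a, the inhibitor p21, rose by 1.19 ± 0.33 and Cdkn1b by 0.44 ± 0.16, while Cdkn1c, another inhibitor of that family, had a lower level by a log2 difference of -0.72 (adjusted p = 0.0136, limma). Without the presumed littermates the higher counts were 10 of 28, 2 of 10, 7 of 17, 3 of 13 and 7 of 15, for the replication, nucleotide, mitosis, promoting and restraining lists, with Cdkn1a among them, and each list held 0 lower calls, so Umps and Cdkn1c were no longer called. The share of all tested genes was then 19.7%, and the nucleotide and promoting lists were near it.

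In knockout fetuses of knockout dams the same lists, in that order, held 15, 2, 13, 3 and 8 higher calls, with Cdk1 at 0.83 and Ccna2 at 0.89. All tested genes were called higher in 17.4% and lower in 7.31%, and the nucleotide and promoting lists were near the first of these. Cdkn1c fell by 0.64, and Shmt1, which feeds folate units to nucleotide synthesis, fell by 0.70. Cdkn1a did not pass there, at 0.74 ± 0.33 (limma adjusted p = 0.103). In the Cpt2 arm each list held 0 calls by limma, with 1, 2, 2, 2 and 2 genes at an unadjusted p under 0.05. Of all tested genes 0% were called in either direction there, and 11.1% had an unadjusted p under 0.05. With lists this small, the counts are below or not far from that share. Cdkn1a, at 0.90 ± 0.33, and Cdk1, at 0.39 ± 0.14, were among the genes counted (limma adjusted p = 0.377 for each).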

How the data were processed

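RNA was sequenced from 20 fetal livers. Libraries came from a stranded mRNA kit after Trizol and column purification and were read for 75 bases from one end, per the labels' protocols. Software was bcl2fastq (2.17.1.14) and Partek (7.0) on the GRCm38.p6 build, per the submitters' processing notes. For aligner and counting, nothing is given in the sources used here. The authors deposited log2 values, and every library has the same quantiles, so they had been quantile normalized. What was counted before taking logs is unnamed, so levels were not compared between genes. Depth is unknown, and the precision of low values cannot be stated.

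Groups came from the labels. Genes with a log2 value of at least 0 in at least 4 libraries were tested (11807) with limma 3.58.1 (R 4.3.3), fitting 5 group means to all 20 libraries (eBayes with a trend, 15 residual and 4.09 prior degrees of freedom), two-sided, with Benjamini-Hochberg adjustment over all genes of a comparison and calls under 0.05. Where a tested gene had blanks (173 genes), its fit used the values present. Intervals are at 95%. The fit was tested on simulated data. The 7 comparisons are those of the report. Marker levels are sums of linear values. Alternatives were 34 in all: scaling, pseudocounts of 0.1, 1 and 4 on linear values, filters, covariates, litter or replicate blocks, and libraries left out.

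The 41 genes, the lists and the tests were chosen with earlier results of these data known. Genes given with all values were the 2 with the smallest p per role in the first comparison, beside called genes with the largest differences elsewhere and those that differed from their role, while Cdc6 and Mcm2 were added after their values were seen. From each pathway list up to 4 called genes with the smallest p were named, with Cdkn1a, Cdkn1b and Cdkn1c, and a few that did not pass were named after their values were seen. Promoters with most E2F matches were printed, ties by p.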

Additional observations from a re-analysis of the deposited data

Results flagged for a closer look

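In 75 sets of 4 libraries (14 genes and the level of the set, in 5 groups), 5 held a library far from the other 3, and chance gives about 1 in 20. Orc6, the origin subunit, was lowest in KODam_KOFetus replicate 2, at 4.67 against 5.06 for the nearest. Dbf4, the Cdc7 partner, was lowest in the same library, at 4.18 against 4.74. The polymerase gene Pole was lowest there too, at 1.43 against 2.04, and in HetDam_HetFetus replicate 2, at 0.79 against 1.46. Fen1, the flap nuclease, was highest in HetDam_HetFetus replicate 1, at 4.52 against 4.23. KODam_KOFetus replicate 2 is the library with skeletal muscle markers at 198, and HetDam_HetFetus replicate 1 that with gut markers at 104. Whether these markers bear on the values was not tested.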

How the results depend on the processing

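The count of 31 higher genes with a knockout dam and heterozygous fetus was 10 without presumed littermates KODam_HetFetus 1 and 2, and 23 to 31 when single libraries were left out. The median of 0.695 was 0.387 without that pair, 0.467 with a pseudocount of 4, and 0.535 to 0.777 without single libraries. After trimmed-mean scaling, which moved the median of all tested genes from 0.144 to 0.028, 24 genes (58.5%) were higher, against 19.4% of all. For knockout fetuses of knockout dams the 24 higher calls became 12 after trimmed-mean scaling and 12 to 25 without single libraries, and the median of 0.502 became 0.695 without the 4 libraries with marker transcripts of neighbouring tissues. Without the pair, the median for the fetal knockout changed sign to 0.124 and that of the difference of maternal effects became 0.299. That difference held 0 to 3 higher calls without single libraries. Counts without single libraries are given here without the share of all tested genes, so a change particular to the set cannot be read from them. Settings that leave out libraries have fewer samples. Beyond that, the cause of these changes was not tested.

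Replicate numbers did not pair the samples. Deviations of same-numbered libraries correlated at -0.379 to 0.445 (median 0.0713, 40 pairs), and 4 of 20 libraries correlated best with their own number. With the replicate block 31 and 24 genes of the set were higher in the first and second comparison with HetDam_HetFetus. Of all tested genes, 3224 and 2145 were higher under that block. The 3 pairs of presumed littermates correlated at -0.108 to 0.248 (median 0.139), as deviations from a group mean that includes both. With presumed litter as a random block, 16 genes of the set were higher in the second comparison. The consensus correlation of 0.566 used for this block rests on those 3 pairs. Of all tested genes, 1644 were called higher in the second comparison under this block, in place of 2053. In the first comparison 2698 of all tested genes were called higher under this block, in place of 3117. They include the 10 genes of the set called in every setting. Cdc45, E2f1, Gins2, Lig1, Mcm7, Pcna, Pole, Prim2, Rfc3, Rrm1 and Rrm2 also passed under this block. Among the settings of that comparison, they lost their call only without KODam_HetFetus replicates 1 and 2. The full count of the set under this block is not given here for that comparison. Depth is unknown, which leaves the error of low values such as those of Pole, Orc1 and Mcm10 unstated.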
